A study of Mus musculus with 18 samples.

Results

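The EGF family of growth factors and the ErbB receptors that they bind were followed in KPCA.B cells, a mouse line labelled as high grade serous ovarian cancer. The 9 genes were the ligand genes Hbegf, Areg, Tgfa, Btc, Ereg and Nrg1 and the receptor genes Egfr, Erbb2 and Erbb3, taken by name from a table of 54532 mouse genes. Of these, 8 were above 0 in at least 1 library and 6 (Hbegf, Areg, Tgfa, Nrg1, Egfr, Erbb2) had a mean of at least 1 FPKM over the 18 libraries and were tested. FPKM is a fragment count divided by gene length and by a measure of library size, so that levels can be compared between genes. In these values that measure was not the plain fragment total of each library. Each of the 6 tested members was above 1 FPKM in every library, down to Nrg1 at 1.09, so that none passed through its high group alone. Ereg, Btc and Erbb3 fell under the filter and are described separately.

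The ligands are made as membrane proteins, and cell-surface proteases cut them free. Amphiregulin (Areg) and transforming growth factor alpha (Tgfa) are ligands of the EGF receptor (Egfr), heparin-binding EGF-like growth factor (Hbegf), betacellulin (Btc) and epiregulin (Ereg) bind Egfr and Erbb4, and neuregulin 1 (Nrg1) binds Erbb3 and Erbb4. A bound receptor pairs with another ErbB receptor and signals through the RAS and ERK kinases and through PI3 kinase and AKT. Erbb2 has no known ligand of its own and acts as a partner, and Erbb3 has a weak kinase and depends on its partner.

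The cells carried a control hairpin (shControl, labelled wild type for Ndufa5) or 1 of 2 hairpins against Ndufa5, a gene of a subunit of mitochondrial complex I (shNdufa5_1 and shNdufa5_2). They were grown in conditioned medium mixed in equal parts with fresh high-glucose DMEM that held 4% serum, an ITS-G supplement and 2 ng/mL of EGF, so that every group, controls included, was given EGF from outside. The conditioned medium came from proliferating cells given the DMF vehicle (PCM) or from cells made senescent with cisplatin (SCM), and the series asks how Ndufa5 bears on the response of the receiving cells. This gives 6 groups of 3 libraries from 1 cell line. The labels do not say that the 3 came from separate cultures, so the p-values measure the spread between these libraries, which may be technical.

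Depth recovered from the FPKM steps was 13.8 to 38.9 M (megafragments) per library, with the shControl replicate 2 libraries the deepest (33.8 M in PCM and 38.9 M in SCM), and log values within a group correlated at 0.979 to 0.99 across genes. Ndufa5 itself was 15.2, 19.0 and 22.1 FPKM in shControl in PCM and 6.23, 6.39 and 6.85 FPKM in shNdufa5_1 in PCM, and it was lower by 1.39 and 1.68 on the log2 scale with that hairpin in PCM and SCM. In the libraries labelled shNdufa5_2 it was 18.7, 17.2 and 16.8 FPKM in PCM, within the control range (log2 difference -0.08, adjusted p = 0.647), and 14.6, 16.1 and 20.2 FPKM in SCM (log2 difference -0.43, adjusted p = 0.0125). Keratins marked the cells as epithelial (Krt7, Krt8, Krt18 and Krt19 at 125.1 to 965.7 FPKM) and Msln was at 40.7 to 71.9 FPKM and Pax8 at 7.49 to 15.3 FPKM, whereas Epcam was at most 0.399 FPKM, Cdh1 at most 1.37 FPKM, and Wt1 and Muc16 were at 0. The defining immune markers Ptprc, Cd3e and Itgam were at or near 0. Of the 6 fibroblast markers, Thy1 was at 0, Col1a2 at most 0.0167 FPKM, Fap at most 0.0104 FPKM and Pdgfrb at most 0.621 FPKM. Col1a1 (0.948 to 3.42 FPKM) and Pdgfra (0.512 to 1.77 FPKM) were above 0 in all 18 libraries and averaged at least 1 FPKM. The summed fibroblast level was 2.48 to 2.86 FPKM in shControl in PCM and 3.64 to 4.79 FPKM in SCM, 1.65 to 2.53 and 2.97 to 3.51 FPKM in shNdufa5_1, and 3.26 to 3.53 and 4.11 to 5.36 FPKM in shNdufa5_2, and its part in the results below was not tested. The summed level of the 6 epithelial markers moved with medium and hairpin (997 to 1062 FPKM in shControl in PCM and 1540 to 1654 FPKM in SCM, 1616 to 1660 and 1924 to 1987 FPKM in shNdufa5_1, and 1135 to 1157 and 1141 to 1206 FPKM in shNdufa5_2), and its part in the results below was not tested. Of the 8 immune and 5 endothelial markers only Cd68 (0.751 to 10.2 FPKM) and Plvap (2.20 to 10.5 FPKM) averaged at least 1 FPKM.

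The levels of the members differed widely. Hbegf was the highest in all 18 libraries, at 64.1 to 125.6 FPKM, followed by Areg at 15.7 to 45.0 FPKM. Hbegf made up 57.7% to 82.9% of the summed FPKM of the 6 ligand genes in a library. The receptors Erbb2 (6.11 to 8.08 FPKM) and Egfr (4.45 to 8.48 FPKM) came next, then Tgfa (1.28 to 2.58 FPKM) and Nrg1 (1.09 to 2.96 FPKM), and then Btc (0.28 to 1.05 FPKM) and Erbb3 (0.162 to 0.942 FPKM). Ereg was listed at 0 in every library, with no fragment counted. The floor taken for such a 0 was an expected count of 3 fragments, or 0.0207 to 0.0562 FPKM depending on depth. Of the related genes that are not members, Nrg3 and Erbb4 were at 0 in every library, Epgn had at most 3 fragments in 5 libraries, Egf had 4 to 62 fragments, and Nrg2 and Nrg4 averaged 0.575 and 0.527 FPKM. None of the 6 passed the filter.

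**Figure D1:**
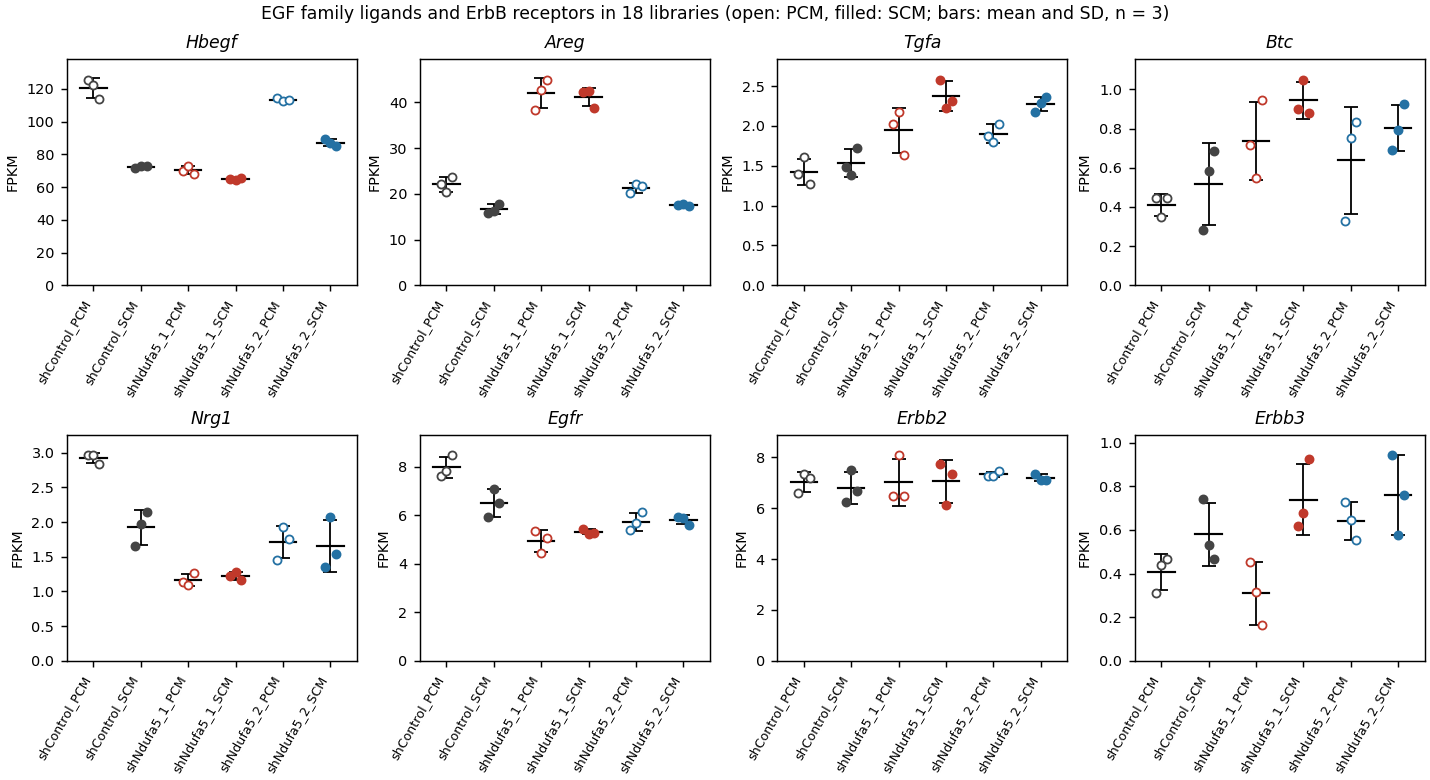
FPKM of 8 members in each of the 18 libraries (y axes from 0, a scale per gene). Points are libraries, open for PCM and filled for SCM, and bars give the mean and SD of 3 libraries. Hbegf in shControl sits at 113.7 to 125.6 in PCM and 71.9 to 72.8 in SCM, Areg is higher in all 6 shNdufa5_1 libraries than in the other 12, and Erbb2 shows no separation by group.

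Several members lie together in the genome. In the GRCm38 annotation, Areg (ENSMUSG00000029378, chr5:91139599-91148432, plus strand) lies beside Ereg (ENSMUSG00000029377, chr5:91074622-91093646, plus strand), Epgn (chr5:91027464-91035215, plus strand) and Btc (ENSMUSG00000082361, chr5:91357261-91402994, minus strand), a cluster of 4 ligand genes over 375.5 kb. Tgfa (ENSMUSG00000029999) is at chr6:86195223-86275719 on the plus strand, and Nrg1 (ENSMUSG00000062991) at chr8:31814551-32884029 on the minus strand. The receptors are Egfr (ENSMUSG00000020122, chr11:16752203-16918158, plus strand), Erbb2 (ENSMUSG00000062312, chr11:98412470-98437716, plus strand) and Erbb3 (ENSMUSG00000018166, chr10:128567523-128589652, minus strand). Mien1, at 6.47 to 24.6 FPKM, overlaps Erbb2 on the opposite strand, and whether counting used strand is not given in the sources used here, so reads of these 2 genes may not be told apart. The antisense gene Egfros at Egfr was at most 0.116 FPKM.

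Promoter sequence from RefSeq (GRCm38.p6) was held for 5 of the 9 members. It is shown for the members that differed between hairpins most (Areg), that were higher with both hairpins (Tgfa) and that followed the medium in shControl (Egfr), as the 250 bases before the annotated start, with capitals marking the motifs searched. The motifs were the cyclic AMP response element TGACGTCA, the AP-1 site TGANTCA, the TATA box TATAAA, the GC box GGGCGG and the CCAAT box, each on both strands.
Areg, chr5:91139349-91139598, plus strand: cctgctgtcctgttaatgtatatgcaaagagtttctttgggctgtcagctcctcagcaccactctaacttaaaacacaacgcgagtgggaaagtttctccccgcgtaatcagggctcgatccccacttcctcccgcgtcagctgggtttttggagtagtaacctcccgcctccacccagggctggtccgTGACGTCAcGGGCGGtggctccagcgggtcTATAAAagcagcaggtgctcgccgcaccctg
Tgfa, chr6:86194972-86195221, plus strand: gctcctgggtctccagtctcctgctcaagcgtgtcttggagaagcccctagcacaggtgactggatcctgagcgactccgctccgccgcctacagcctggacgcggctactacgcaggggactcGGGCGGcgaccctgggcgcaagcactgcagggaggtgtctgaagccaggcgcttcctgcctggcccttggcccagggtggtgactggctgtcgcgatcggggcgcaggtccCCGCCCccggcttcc
Egfr, chr11:16751953-16752202, plus strand: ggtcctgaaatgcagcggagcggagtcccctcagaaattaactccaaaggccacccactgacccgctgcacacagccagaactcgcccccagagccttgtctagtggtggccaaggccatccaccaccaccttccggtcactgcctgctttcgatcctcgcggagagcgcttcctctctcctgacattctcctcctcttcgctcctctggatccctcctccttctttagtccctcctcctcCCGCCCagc
The Areg promoter held TGACGTCA at positions -61 to -54 from the start, a GC box at -52 to -47 and TATAAA at -31 to -26. Over all 32851 mouse promoter windows of this length, 1.55% held TGACGTCA, 12.4% TATAAA and 32.7% a GC box. The Tgfa promoter held GC boxes at -126 to -121 and -15 to -10, and the Egfr promoter held a GC box at -9 to -4. AP-1 letters (6.75% of windows) and CCAAT (33.8%) were in none of these 3 windows. A match of letters is a description of the sequence and not a measured site.

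In shControl cells, SCM went with less Hbegf, Areg, Nrg1 and Egfr RNA, where fewer expressing cells and less RNA per cell cannot be told apart in bulk samples. Hbegf was at 60% of its PCM level, Nrg1 at 65.9%, Areg at 75.4% and Egfr at 81.4%. In all, 4 of the 6 tested members fell and none rose, where 61.9% of the 11084 tested genes were called in either direction and 30.2% fell (limma with Benjamini-Hochberg adjustment). The median log2 difference of the 6 members was -0.32, against 0.0034 over all tested genes. The balance of all called genes depends on the scale. On the deposited values 3517 genes rose and 3346 fell, against 1936 and 5416 with every library at the same fragment total, and 486 and 7832 with every library at the same FPKM sum, where the median gene shifted by -0.205 and -0.499 and 5 and 6 members fell. At equal FPKM sums the member differences were also wider, at -1.33 for Hbegf, -0.97 for Areg, -0.85 for Nrg1 and -0.80 for Egfr.

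Hbegf was 125.6, 122.5 and 113.7 FPKM in PCM and 71.9, 72.8 and 72.6 FPKM in SCM. The lowest PCM library was far above the highest SCM library, and the 3 SCM libraries were nearly level. The log2 difference was -0.73 (SE 0.04, adjusted p = 1.23e-10). Areg was 22.0, 20.4 and 23.7 FPKM in PCM and 15.7, 16.3 and 17.8 FPKM in SCM, with no overlap, and its log2 difference was -0.39 (SE 0.06, adjusted p = 8.49e-05).

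Nrg1 was 2.96, 2.96 and 2.83 FPKM in PCM and 1.65, 1.97 and 2.15 FPKM in SCM. All PCM libraries were higher, and the SCM libraries were more spread. The log2 difference was -0.43 (SE 0.10, adjusted p = 0.00194). Tgfa did not pass, at 1.39, 1.6 and 1.28 FPKM in PCM and 1.49, 1.38 and 1.72 FPKM in SCM, where the ranges overlap. Its log2 difference was 0.06 (95% interval -0.13 to 0.25), and -0.30 with every library at the same FPKM sum.

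Of the receptors, Egfr was 7.65, 7.85 and 8.48 FPKM in PCM and 5.94, 7.08 and 6.51 FPKM in SCM. The groups do not overlap, and the log2 difference was -0.26 (SE 0.07, adjusted p = 0.00339). This call ended once a trend of the values with gene GC content and length was removed from each library (log2 difference -0.07, adjusted p = 0.461). Erbb2 was 6.61, 7.34 and 7.17 FPKM in PCM and 6.24, 7.49 and 6.68 FPKM in SCM, with overlap. Its log2 difference was -0.05 (95% interval -0.23 to 0.14, adjusted p = 0.664), and -0.28 (adjusted p = 0.0109) after the same trend was removed, -0.58 (adjusted p = 6.95e-06) at equal FPKM sums and -0.26 (adjusted p = 0.0101) at equal fragment totals. After the trend was removed Erbb2 passed and Egfr did not, so the order of Egfr and Erbb2 in this comparison depends on that step.

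**Figure D2:**
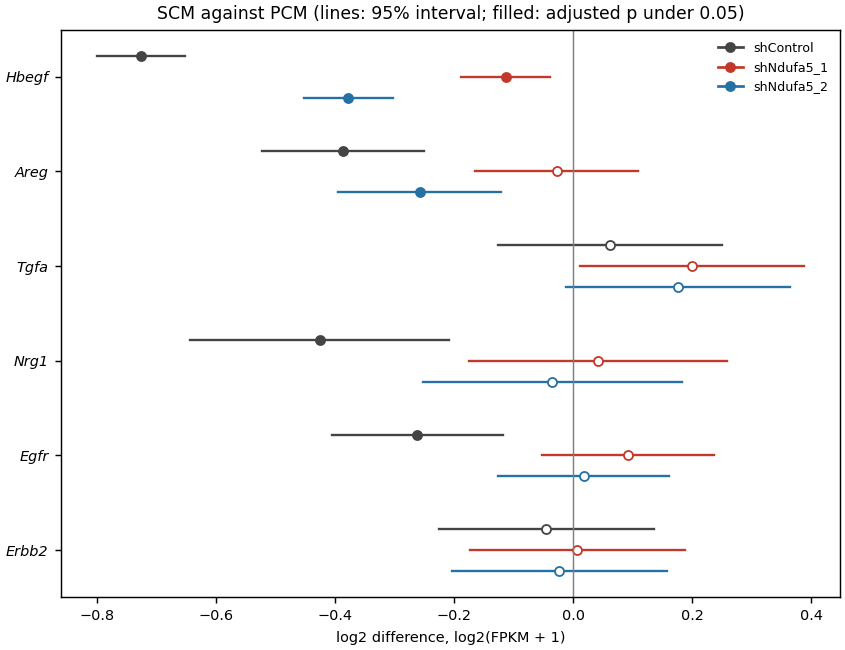
Log2 difference of SCM against PCM, on log2(FPKM + 1), for the 6 tested members in each hairpin line. Lines are 95% intervals and filled points passed an adjusted p of 0.05. Hbegf lies at -0.73 in shControl, -0.38 in shNdufa5_2 and -0.11 in shNdufa5_1, and the Nrg1 and Egfr intervals exclude 0 in shControl alone.

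With shNdufa5_1, Hbegf alone was called for the medium, on the deposited values. Hbegf was 69.7, 72.9 and 68.0 FPKM in PCM and 64.9, 64.1 and 65.3 FPKM in SCM, a log2 difference of -0.11 (SE 0.04, adjusted p = 0.0168). It was the 1 member of 6 called, where 42.3% of tested genes were called and 19.8% fell. All called genes divided into 2493 that rose and 2194 that fell, against 1213 and 1951 at equal FPKM sums and 1995 and 2691 at equal fragment totals. The call was lost without shNdufa5_1_PCM replicate 2 (-0.09, adjusted p = 0.0762), without shNdufa5_1_SCM replicate 2 (-0.11, adjusted p = 0.0538) and at equal FPKM sums (-0.17, adjusted p = 0.0623). Areg (log2 difference -0.03, 95% interval -0.16 to 0.11), Nrg1 (0.04, -0.18 to 0.26) and Egfr (0.09, -0.05 to 0.24) had intervals that span 0, although Egfr passed once the GC and length trend was removed (0.24, adjusted p = 0.0199). Tgfa was at 0.20 (adjusted p = 0.0819), and at 0.26 (adjusted p = 0.0444) without shNdufa5_1_PCM replicate 2.

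In the libraries labelled shNdufa5_2, 2 of the 6 members fell in SCM, where 22.8% of tested genes were called and 11.1% fell. All called genes divided into 1302 that rose and 1230 that fell, against 694 and 230 at equal FPKM sums and 894 and 2027 at equal fragment totals. Hbegf was 114.1, 112.4 and 113.4 FPKM in PCM and 89.1, 87.0 and 84.8 FPKM in SCM, with a wide gap between the groups and a log2 difference of -0.38 (SE 0.04, adjusted p = 3.27e-06). Areg was 20.2, 22.1 and 21.6 FPKM in PCM and 17.5, 17.9 and 17.4 FPKM in SCM, with no overlap. Its log2 difference was -0.26 (SE 0.06, adjusted p = 0.00901), and -0.22 (adjusted p = 0.152) at equal FPKM sums. Nrg1 (-0.04, 95% interval -0.25 to 0.18) and Egfr (0.02, -0.13 to 0.16) did not pass.

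The difference between these medium responses was tested as an interaction. Responses are signed log2 differences of SCM against PCM. Where a gene fell in shControl, a higher response means a smaller fall, no fall or a rise. For Hbegf the responses were -0.73 in shControl, -0.11 with shNdufa5_1 and -0.38 with shNdufa5_2. For shNdufa5_1 against shControl, 4 of the 6 members had a higher response, where 26.2% of tested genes were called and 10.7% were higher. The split depends on the scale: 1186 genes had a higher and 1714 a lower response on the deposited values, against 3320 and 770 at equal fragment totals and 7001 and 84 at equal FPKM sums, where the median gene shifted to 0.458 and all 6 members were higher. The response of Hbegf was higher by 0.61 on the log2 scale (SE 0.05, adjusted p = 4.67e-07), of Nrg1 by 0.47 (SE 0.14, adjusted p = 0.0258), of Areg by 0.36 (SE 0.09, adjusted p = 0.00834) and of Egfr by 0.35 (SE 0.10, adjusted p = 0.0123). They were 1.16, 0.86, 0.88 and 0.84 at equal FPKM sums. The Nrg1 call was lost without any 1 of shControl_PCM replicate 1, shControl_PCM replicate 2, shNdufa5_1_PCM replicate 2, shControl_SCM replicate 1 and shNdufa5_1_SCM replicate 2 (0.40 to 0.46, adjusted p = 0.0503 to 0.0647), and with no filter (adjusted p = 0.0676).

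For shNdufa5_2 against shControl, 3 members had a higher response, where 43% of tested genes were called and 18.9% were higher. Here 2096 genes had a higher and 2672 a lower response on the deposited values, against 3554 and 1413 at equal fragment totals and 7358 and 92 at equal FPKM sums, where the median gene shifted to 0.519 and all 6 members were higher (Hbegf 0.99, Nrg1 0.84, Areg 0.75, Egfr 0.85). Hbegf differed by 0.35 (SE 0.05, adjusted p = 5.06e-05). Nrg1 (0.39, adjusted p = 0.0392) and Egfr (0.28, adjusted p = 0.0276) passed narrowly. Nrg1 was lost without any 1 of the 3 shControl_PCM libraries, shControl_SCM replicates 1 and 2, shNdufa5_2_PCM replicates 1 and 3 and shNdufa5_2_SCM replicate 2 (0.28 to 0.41, adjusted p = 0.0555 to 0.106). Egfr was lost without any 1 of shControl_PCM replicate 3, shControl_SCM replicate 1, shNdufa5_2_PCM replicates 1 and 2 and shNdufa5_2_SCM replicates 1 and 2 (0.22 to 0.27, adjusted p = 0.0509 to 0.0729). With the GC and length trend removed, Egfr was at 0.05 (adjusted p = 0.743) and Nrg1 at 0.29 (adjusted p = 0.149), while Areg, at 0.13 on the deposited scale (adjusted p = 0.273), was at 0.31 (adjusted p = 0.0205). All these comparisons share the shControl libraries.

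Between hairpins in the same medium, Hbegf and Areg moved in opposite directions with shNdufa5_1 in PCM. In that medium, Hbegf was at 58.2% of its shControl level (log2 difference -0.77, SE 0.04, adjusted p = 1.37e-10), which put the 3 libraries at 68.0 to 72.9 FPKM, a range that holds the 3 libraries of shControl in SCM. Areg was 38.4, 42.7 and 45.0 FPKM with shNdufa5_1 in PCM and 42.2, 42.4 and 38.8 FPKM in SCM. Every one of these 6 libraries was above every other library of the series. Areg was 1.90 times its shControl mean in PCM (log2 difference 0.90, SE 0.06, adjusted p = 1.74e-08) and 2.48 times in SCM (1.26, SE 0.06, adjusted p = 2.12e-10).

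Areg in the libraries labelled shNdufa5_2 did not pass against shControl, with a log2 difference of -0.05 in PCM (95% interval -0.19 to 0.09) and 0.08 in SCM (-0.06 to 0.22). Both passed at equal FPKM sums, at -0.39 (adjusted p = 0.00198) and 0.36 (adjusted p = 0.00564). The 2 hairpins differed from each other in 4 of the 6 members in PCM, where 62.9% of tested genes were called, and in 2 in SCM, where 53.9% were called. In PCM 3654 genes were higher and 3313 lower in shNdufa5_2, against 1798 and 4639 at equal FPKM sums, and in SCM 3029 and 2942, against 1652 and 3493. Areg was lower in shNdufa5_2 by 0.95 in PCM and 1.18 in SCM on the log2 scale (adjusted p = 4.67e-09 and 6.58e-10), and Hbegf higher by 0.68 and 0.42 (adjusted p = 2.41e-10 and 7.89e-08). The other 2 calls in PCM, Nrg1 (0.32, adjusted p = 0.0117) and Egfr (0.18, adjusted p = 0.0276, and -0.0093 at equal FPKM sums), were both lost without shNdufa5_2_PCM replicate 2 (0.27 and 0.19, adjusted p = 0.0554 and 0.0516). Egfr was also lost without shNdufa5_1_PCM replicate 2 (0.12, adjusted p = 0.141) or shNdufa5_2_PCM replicate 3 (0.14, adjusted p = 0.118). Hbegf with shNdufa5_2 was at 93.9% of shControl in PCM (log2 difference -0.09, adjusted p = 0.0624). That value passed without shControl_PCM replicate 3 (-0.13, adjusted p = 0.00759) or shNdufa5_1_PCM replicate 2 (-0.09, adjusted p = 0.0462), at equal fragment totals (-0.18, adjusted p = 0.000565), at equal FPKM sums (-0.44, adjusted p = 5.57e-05) and with the GC and length trend removed (-0.12, adjusted p = 0.0178). In SCM it was higher than shControl, at 120% (log2 difference 0.26, SE 0.04, adjusted p = 5.46e-05, and 0.55 at equal FPKM sums), with its 3 libraries all above those of shControl.

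In SCM, Hbegf with shNdufa5_1 was lower than shControl by 0.16 on the deposited scale (adjusted p = 0.00105) but higher by 0.03 at equal fragment totals and by 0.26 at equal FPKM sums, so that its direction depends on the scale. The hairpin counts were as follows. Of the 6 members, 2 rose and 3 fell with shNdufa5_1 in PCM, where 52.7% of tested genes were called (25.6% rose and 27.1% fell), and 2 rose and 3 fell in SCM, where 59.8% were called (28.7% rose and 31.1% fell). With shNdufa5_2, 1 rose and 2 fell in PCM, where 35.6% were called (19.3% rose and 16.3% fell), and 2 rose in SCM, where 33.9% were called (13.9% rose and 20% fell). The counts for shNdufa5_2 lie near these shares and are no result about the family. The same holds for the counts in either direction of the medium in shControl, of the shNdufa5_2 interaction and between hairpins. With 6 tested members, no count was tested against its share. The splits changed at equal FPKM sums. With shNdufa5_1, 1 member rose and 3 fell in PCM (1408 genes rose and 3676 fell, against 2839 and 3000 on the deposited values), and 4 rose and 0 fell in SCM (6373 genes rose and 998 fell, against 3181 and 3450). With shNdufa5_2, 0 rose and 5 fell in PCM (139 genes rose and 6334 fell, against 2138 and 1809), and 4 rose and 0 fell in SCM (4759 genes rose and 183 fell, against 1545 and 2213).

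**Figure D3:**
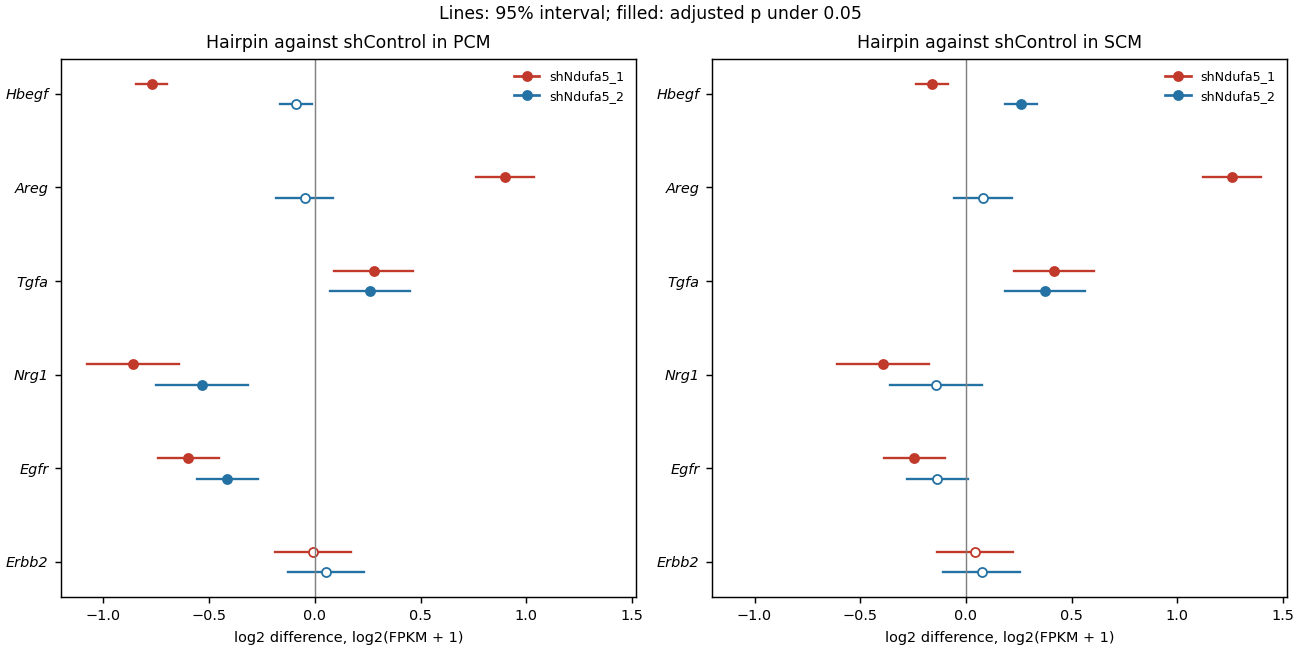
Log2 difference of each Ndufa5 hairpin against shControl, on log2(FPKM + 1), in PCM (left) and SCM (right). Lines are 95% intervals and filled points passed an adjusted p of 0.05. Areg with shNdufa5_1 lies at 0.90 and 1.26 while shNdufa5_2 lies near 0, and Tgfa lies to the right of 0 for both hairpins in both media.

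Tgfa was higher with both hairpins, although Ndufa5 itself was within the control range in PCM in the libraries labelled shNdufa5_2. Tgfa was 2.02, 2.18 and 1.63 FPKM with shNdufa5_1 in PCM and 2.58, 2.23 and 2.31 FPKM in SCM. With shNdufa5_2 it was 1.88, 1.79 and 2.03 FPKM in PCM and 2.18, 2.29 and 2.36 FPKM in SCM. Each of these 4 groups lay wholly above the shControl group in the same medium. In SCM the log2 differences were 0.42 for shNdufa5_1 (SE 0.09, adjusted p = 0.000773) and 0.37 for shNdufa5_2 (SE 0.09, adjusted p = 0.00439). The Tgfa means there were 1.55 and 1.49 times that of shControl, since log2(FPKM + 1) understates the change of low genes.

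In PCM the Tgfa differences were smaller, at 0.28 (1.37 times the shControl mean, adjusted p = 0.0151) and 0.26 (1.33 times, adjusted p = 0.0315). The first was lost without shControl_PCM replicate 3 (0.23, adjusted p = 0.0644) or shNdufa5_1_PCM replicate 2 (0.22, adjusted p = 0.0687), and at equal FPKM sums (0.21, adjusted p = 0.0918). The second was lost without any 1 of shControl_PCM replicates 1 and 3 and shNdufa5_2_PCM replicates 1 and 3 (0.22 to 0.27, adjusted p = 0.0628 to 0.119), with no filter, with the GC and length trend removed and at either other scaling (0.04 at equal FPKM sums, 0.20 at equal fragment totals). The 2 hairpins were not told apart by Tgfa, with differences of -0.02 in PCM (95% interval -0.21 to 0.17) and -0.04 in SCM (-0.23 to 0.15).

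Nrg1 and Egfr were lower with both hairpins in PCM, where Ndufa5 itself was at 93.4% of shControl in the libraries labelled shNdufa5_2. Both comparisons share the same shControl libraries. Nrg1 was 1.13, 1.09 and 1.26 FPKM with shNdufa5_1 and 1.46, 1.92 and 1.76 FPKM with shNdufa5_2, all under the shControl libraries. The log2 differences were -0.86 (SE 0.10, adjusted p = 4.09e-06) and -0.53 (SE 0.10, adjusted p = 0.000792). The Nrg1 means were 39.8% and 58.6% of that of shControl, since log2(FPKM + 1) understates the change of low genes. Egfr was 5.35, 4.45 and 5.05 FPKM and 5.41, 5.69 and 6.14 FPKM, again all under shControl, with log2 differences of -0.60 (SE 0.07, adjusted p = 2.44e-06) and -0.42 (SE 0.07, adjusted p = 0.000222).

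In SCM, Nrg1 was 1.22, 1.28 and 1.17 FPKM with shNdufa5_1 and 1.35, 2.07 and 1.55 FPKM with shNdufa5_2. The first group lay under shControl (log2 difference -0.39, adjusted p = 0.00376, and -0.13 with adjusted p = 0.32 at equal FPKM sums), whereas the second overlapped it (-0.14, 95% interval -0.36 to 0.07). Egfr was 5.45, 5.25 and 5.29 FPKM with shNdufa5_1, under shControl on the deposited scale (log2 difference -0.24, adjusted p = 0.00567) but with a difference of 0.12 at equal FPKM sums and -0.08 (adjusted p = 0.308) at equal fragment totals. With shNdufa5_2 it was 5.94, 5.91 and 5.62 FPKM (-0.14, adjusted p = 0.137). That value was -0.26 (adjusted p = 0.0159) once the GC and length trend was removed and 0.12 (adjusted p = 0.359) at equal FPKM sums, so that its direction depends on the scale.

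Erbb2 was called in no comparison on the deposited values, at 6.48, 8.08 and 6.5 FPKM with shNdufa5_1 in PCM, 7.72, 6.11 and 7.34 FPKM in SCM, and 7.12 to 7.45 FPKM in the 6 libraries labelled shNdufa5_2. All group ranges overlapped that of shControl in the same medium. The 95% intervals of its differences from shControl in the same medium ran from -0.19 to 0.25 on the log2 scale. At equal FPKM sums the difference between shNdufa5_2 and shControl in PCM was -0.26 (adjusted p = 0.0111), and those of shNdufa5_1 and shNdufa5_2 from shControl in SCM were 0.41 (adjusted p = 0.000324) and 0.33 (adjusted p = 0.00444). The first of these was 0.21 (adjusted p = 0.0367) at equal fragment totals. At equal FPKM sums the medium responses of Erbb2 were also higher than that of shControl, by 0.54 with shNdufa5_1 (adjusted p = 0.000996) and 0.59 with shNdufa5_2 (adjusted p = 0.000315).

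Ratios within a library do not depend on how the library was scaled. The Hbegf to Areg ratio was 5.50 ± 0.623 (SD, n = 3) in shControl in PCM and 4.37 ± 0.261 in SCM, 1.68 ± 0.153 and 1.58 ± 0.0912 with shNdufa5_1, and 5.34 ± 0.293 and 4.94 ± 0.125 with shNdufa5_2. The 6 shNdufa5_1 libraries (1.51 to 1.81) stood apart from the other 12 (4.07 to 6). The Egfr to Erbb2 ratio was 1.14 ± 0.0596 in shControl in PCM and 0.957 ± 0.0147 in SCM, so that Egfr had the higher FPKM in the first group alone. It was 0.718 ± 0.148 and 0.762 ± 0.0848 with shNdufa5_1 and 0.784 ± 0.0407 and 0.809 ± 0.0205 with shNdufa5_2, in PCM and SCM. Unlike scaling, a trend with gene GC content and length does not cancel in a ratio. With that trend removed, Erbb2 and not Egfr was called for the medium in shControl. Which of the 2 had the higher FPKM also rests on gene lengths that are not given, and Erbb2 reads may include those of Mien1.

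The Tgfa to Nrg1 ratio was 0.487 ± 0.0484 in shControl in PCM and 0.802 ± 0.1 in SCM, below 1 in all 6 libraries. It was 1.69 ± 0.359 and 1.94 ± 0.183 with shNdufa5_1, above 1 in all 6, and 1.13 ± 0.179 and 1.41 ± 0.269 with shNdufa5_2, where 1 library in PCM was below 1. The summed level of the 6 ligand genes was 147 ± 5.22 FPKM in shControl in PCM and 93.0 ± 1.94 FPKM in SCM. It was 116 ± 3.81 and 110 ± 1.78 FPKM with shNdufa5_1, where Areg made up 34.3% to 38.5% of it, and 139 ± 0.833 and 109 ± 2.02 FPKM with shNdufa5_2, where Areg made up 14.6% to 16.3%. These ratios are descriptions and were not tested.

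**Figure D4:**
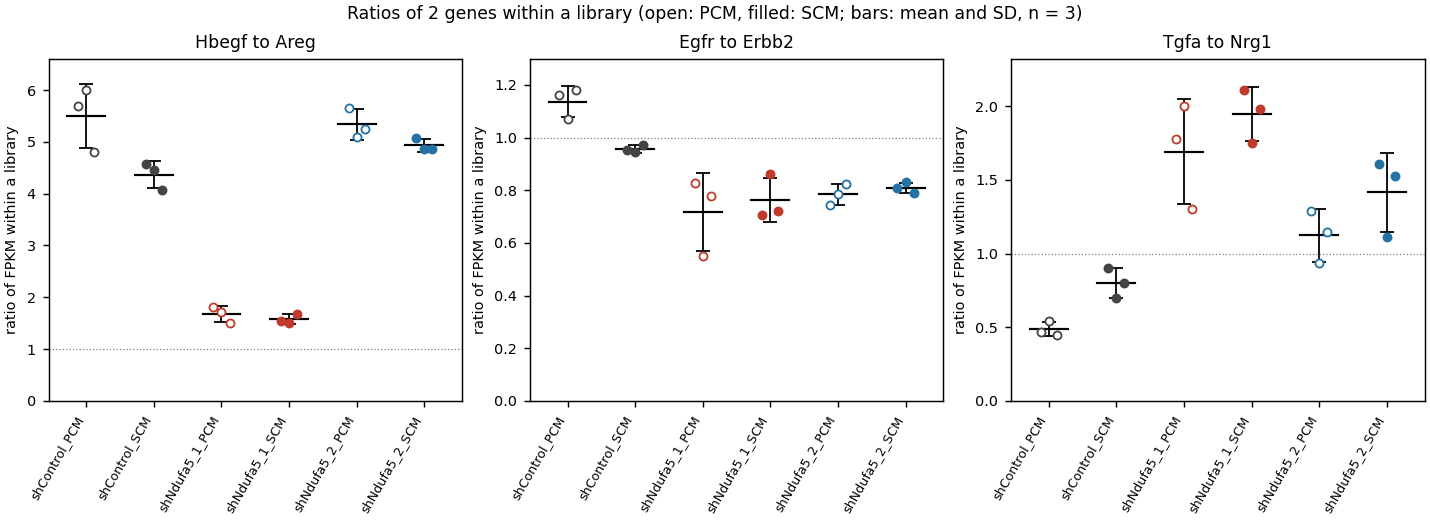
Ratio of the FPKM of 2 genes within each library (y axes from 0, dotted line at 1). Points are libraries, open for PCM and filled for SCM, and bars give the mean and SD of 3 libraries. The Hbegf to Areg ratio is 1.51 to 1.81 in the shNdufa5_1 libraries and 4.07 to 6 in the others, Egfr to Erbb2 exceeds 1 in shControl in PCM alone, and Tgfa to Nrg1 is under 1 in shControl.

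Btc and Erbb3 were low, with 17 to 99 and 16 to 108 fragments per library. Btc was 0.444, 0.346 and 0.443 FPKM in shControl in PCM and 0.28, 0.584 and 0.684 FPKM in SCM, and 0.718, 0.547 and 0.944 FPKM and 0.900, 1.05 and 0.879 FPKM with shNdufa5_1. The shNdufa5_1 libraries lay above those of shControl in both media. An exact two-sided permutation test within each medium, on the deposited scale, gave a difference of 0.376 FPKM (p = 0.005, adjusted p = 0.015 over 6 such tests). With shNdufa5_2, Btc was 0.327, 0.751 and 0.834 FPKM in PCM and 0.692, 0.792 and 0.923 FPKM in SCM (difference from shControl 0.257 FPKM, exact permutation p = 0.055, adjusted p = 0.0699). In the fit with no filter, Btc was called in none of the 11 comparisons.

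Erbb3 was 0.313, 0.440 and 0.468 FPKM in shControl in PCM and 0.742, 0.532 and 0.465 FPKM in SCM, with overlap. It was 0.451, 0.316 and 0.162 FPKM with shNdufa5_1 in PCM and 0.618, 0.677 and 0.923 FPKM in SCM, with no overlap, and 0.726, 0.645 and 0.553 FPKM with shNdufa5_2 in PCM and 0.942, 0.577 and 0.758 FPKM in SCM. On the deposited scale, Erbb3 over the 3 hairpin lines was 0.24 FPKM higher in SCM than in PCM (exact permutation within each line, two-sided, p = 0.00375, adjusted p = 0.015). It was 0.207 FPKM higher with shNdufa5_2 than in shControl (exact permutation p = 0.02, adjusted p = 0.04), while the shNdufa5_1 difference of 0.0313 FPKM did not pass (exact permutation p = 0.695). In the fit with no filter, the medium difference with shNdufa5_1 was called (log2 difference 0.41, adjusted p = 0.0157), whereas shNdufa5_2 against shControl was not, in PCM (adjusted p = 0.245) or in SCM (adjusted p = 0.462). A single comparison of 3 libraries with 3 cannot go below p = 0.1 by an exact permutation test. The ratio of the SCM to the PCM mean of Erbb3 was 1.42 in shControl, 2.39 with shNdufa5_1 and 1.18 with shNdufa5_2. The exact tests of Btc and Erbb3 used the deposited values alone, and no other scale was tried. FPKM sums in shControl were 290242 to 303782 in PCM and 437859 to 484520 in SCM, so the shControl part may depend on the scale.

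The genes whose level followed each member most closely over the 18 libraries were taken by Pearson's r of log2(FPKM + 1), as a description, since the libraries share groups and the same media. Tested genes were ranked by highest positive r, leaving out clone and model names such as Gm numbers and Rik. The nearest to Nrg1 were Egfr itself (r = 0.92), Cldn12 (0.897) and Itpripl2 (0.893), and Itpripl2 also stood near Egfr (0.907), after Ahcyl1 (0.946) and Nrg1. Hbegf was followed by Orc5 (0.988), the AP-1 transcription factor gene Jun (0.972) and Rab2a (0.971). Areg was followed by Psmd1 (0.988), Pls3 (0.985) and Clic4 (0.984), and Tgfa by Col5a3 (0.896), Rcan3 (0.871) and Mgat5 (0.867). No ranked gene followed Erbb2 closely, the nearest being Epor at 0.695, Tbc1d25 at 0.678 and Mitd1 at 0.646.

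Genes that act around the family were then counted by role. For each list below, the shares over all tested genes in shControl were 61.9% called for the medium and 30.2% that fell. At equal FPKM sums the median of all tested genes was -0.499, and at equal fragment totals -0.205. Most called genes fell on those scales, so list counts there are no result about the lists. The genes named singly below were picked as those with the largest called and non-overlapping medium differences in shControl. Their separation there follows from that choice and is no added support. Interaction tests of these genes reuse the same shControl libraries, so the choice favours a difference. Among the 9 of 11 genes of ligand shedding and trafficking that were tested, 5 rose and 3 fell in SCM against PCM in shControl, with a median log2 difference of 0.23. Rhbdf1, which helps deliver the sheddase Adam17 to the surface, went from 15.4, 15.3 and 16 FPKM to 22.6, 25.2 and 24.0 FPKM. The log2 differences were 0.59 for Rhbdf1, 0.59 for the metalloprotease gene Adam15 and 0.43 for Cd9, a tetraspanin gene, but 0.01, 0.01 and -0.18 at equal FPKM sums, where the list's median was -0.34 and 0 rose and 6 fell.

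In the same comparison, 7 of 25 genes of receptor adaptors and the kinase cascade rose and 10 fell (median -0.11). At equal FPKM sums 1 rose and 19 fell (median -0.62), and at equal fragment totals 6 rose and 17 fell (median -0.34). Mapk3, which encodes the ERK1 kinase, had a log2 difference of 0.74, and Map2k2, which encodes the MEK2 kinase above it, 0.73, against 0.14 and 0.14 at equal FPKM sums. Pik3cb, a PI3 kinase catalytic subunit gene, went from 8.97, 8.50 and 9.96 FPKM to 4.86, 5.18 and 5.30 FPKM, a log2 difference of -0.73.

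Among the 15 of 16 genes that restrain or turn over the receptors and were tested, 3 rose and 8 fell (median -0.17). These counts were 0 and 14 (median -0.68) at equal FPKM sums, 1 and 12 (median -0.38) at equal fragment totals, and 2 and 4 (median -0.05) with the GC and length trend removed. Errfi1, which encodes a feedback inhibitor that binds the ErbB kinases, was 150, 151 and 150 FPKM in shControl in PCM and 71.0, 70.0 and 66.8 FPKM in SCM (log2 difference -1.11, SE 0.03, adjusted p = 8.78e-13). With shNdufa5_1 it was 152, 157 and 155 FPKM in PCM and 136, 132 and 140 FPKM in SCM, a log2 difference of -0.19 (adjusted p = 0.000313), and its medium response was higher than that of shControl by 0.92 (SE 0.05, adjusted p = 9.25e-09). With shNdufa5_2 it was 103, 111 and 111 FPKM in PCM and 75.3, 74.3 and 75.3 FPKM in SCM (log2 difference -0.52), with a response higher by 0.58 (SE 0.05, adjusted p = 2.04e-07).

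Hbegf and Errfi1 had the same order of signed medium responses, with the lowest in shControl and the highest in shNdufa5_1. Every tested member had that order, as did Egr1 and Myc, though Pik3cb and Cbl did not, so it does not single out this pair. Cbl, which encodes a ubiquitin ligase that tags active Egfr for breakdown, went from 12.2, 12.0 and 11.8 FPKM to 8.82, 8.70 and 8.04 FPKM in shControl (log2 difference -0.45, adjusted p = 4.91e-07). Its responses with shNdufa5_1 (-0.03) and shNdufa5_2 (0.01) did not pass, and both were higher than that of shControl, by 0.42 and 0.46 (adjusted p = 0.000166 and 4.15e-05). Socs3, a gene of cytokine signal feedback, had a log2 difference of 0.60 in shControl, and 0.01 at equal FPKM sums.

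Among 17 genes of ERK feedback and output, 5 rose and 9 fell in shControl (median -0.15), against 0 and 14 (median -0.75) at equal FPKM sums and 5 and 12 (median -0.40) at equal fragment totals. Egr1, an immediate early transcription factor gene, was 43.9, 41.8 and 42.7 FPKM in PCM and 19.9, 21.7 and 20.6 FPKM in SCM. With shNdufa5_1 it was higher in SCM (44.5, 45.2 and 43.0 FPKM) than in PCM (35.5, 34.8 and 35.4 FPKM), a log2 difference of 0.32 (SE 0.04, adjusted p = 1.21e-05), and its response differed from that of shControl by 1.33 (SE 0.05, adjusted p = 1.50e-09). With shNdufa5_2 it fell in SCM by 0.50. Myc, a growth-linked transcription factor gene, was 137, 134 and 127 FPKM in shControl in PCM and 71.3, 74.7 and 73.9 FPKM in SCM, and its responses were higher with shNdufa5_1 by 0.49 and with shNdufa5_2 by 0.45 (adjusted p = 0.000128 and 0.000161). Ier3, an early response gene, went the other way in shControl, with a log2 difference of 0.77 (0.16 with adjusted p = 0.099 at equal FPKM sums).

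In the other lines 42.3% (shNdufa5_1) and 22.8% (shNdufa5_2) of all tested genes were called for the medium, against 61.9% in shControl, so lower counts in a list there are no result about that list. With shNdufa5_1, 3 of 25 cascade genes rose and 7 fell, 3 of 15 restraint genes rose and 5 fell, and 6 of 17 output genes rose and 4 fell, with medians of -0.01, 0.03 and 0.09. With shNdufa5_2, 3 of 25 rose and 5 fell, 1 of 15 rose and 2 fell, and 4 of 17 rose and 7 fell, with medians of -0.0014, -0.0072 and -0.10. Of the 9 shedding genes, 5 rose and 3 fell with shNdufa5_1 and 3 rose and 1 fell with shNdufa5_2, with medians of 0.19 and 0.11. Over all tested genes the medians were 0.02 and -0.0046. The lists were not tested as sets.

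**Figure D5:**
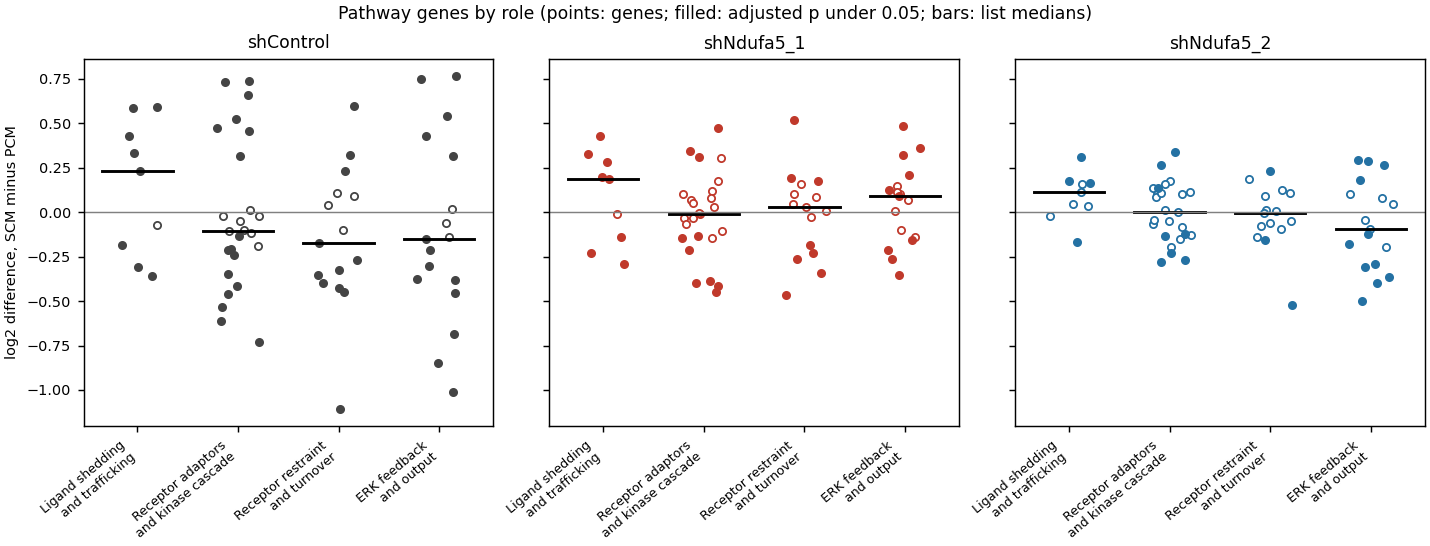
Log2 difference of SCM against PCM, on log2(FPKM + 1), for the tested genes of 4 role lists in each hairpin line. Points are genes, filled where the adjusted p was under 0.05, and bars are list medians. Errfi1 is the lowest point of the restraint list in shControl, at -1.11, and the list medians in shControl run from -0.17 to 0.23, where equal FPKM sums turn the shedding median to -0.34.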

How the data were processed

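RNA from 18 libraries in 6 groups of 3 was described by the labels' protocols as poly-A RNA made into NEBNext Ultra II libraries. The authors deposited FPKM values for 54532 Ensembl mouse genes. The submitters' processing notes list STAR 2.6.1, DESeq2, GRCm38 and mm10, with no roles. How fragments were counted (strand included) and which lengths and totals entered the FPKM is not given in the sources used here. With GENCODE M21 exon lengths (54495 of 54532 identifiers matched), 99.5% to 99.8% of the low values of single-transcript genes were whole fragments within 0.1, and depth was read from these steps. The FPKM sums of the libraries differ. The divisor for library size read from these steps also differed from the fragment total. It was 35.1 M against 33.8 M fragments in shControl_PCM replicate 2, and 33.7 M against 38.9 M in shControl_SCM replicate 2.

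Tests used limma 3.58.1 in R 4.3.3 on log2(FPKM + 1), with 1 coefficient per group, a trended variance, two-sided tests and Benjamini-Hochberg adjustment over the 11084 genes with a mean of at least 1 FPKM, called at an adjusted p under 0.05, in 11 comparisons. The script was tested on simulated data. A fold change on this scale understates that of low genes. No count test was run. Alternatives were a pseudocount of 0.1, no filter, equal FPKM sums, equal fragment totals (chosen after seeing the data), removal of a GC and length trend (splines with 4 degrees of freedom), a replicate block, and leaving out each library.

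The members and lists were chosen with earlier results of these data known. Named were all members, Ndufa5, the related family genes, for each list up to 3 called genes with the largest non-overlapping difference for medium in shControl, and for each tested member the 3 genes of highest correlation, leaving out clone and model names. All table columns were matched to a library.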

Additional observations from a re-analysis of the deposited data

Results flagged for a closer look

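The medium response (SCM against PCM, log2 scale) differed from that of shControl by an interaction test for 4 members with shNdufa5_1: Hbegf by 0.61, Nrg1 by 0.47, Areg by 0.36 and Egfr by 0.35. In the libraries labelled shNdufa5_2 it differed for 3 members: Nrg1 by 0.39, Hbegf by 0.35 and Egfr by 0.28. Over all tested genes, 26.2% and 43% were called in these comparisons, and 10.7% and 18.9% were higher. The shNdufa5_2 count in either direction lies near its share and is no result about the family. The Nrg1 calls and the shNdufa5_2 Egfr call were lost when certain single libraries were left out. For each listed member the signed response was higher than in shControl, where these members fell, so a fall was smaller or not called. Areg alone was listed for 1 hairpin only. Both sets of differences use the same 6 shControl libraries. The shControl PCM group is where Nrg1 and Egfr had their highest levels (2.83 to 2.96 FPKM and 7.65 to 8.48 FPKM).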

How the results depend on the processing

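Over 66 member results and 25 alternatives, 1554 values stayed on their side of the threshold, 55 were no longer past it, 35 newly passed and 6 changed sign while past it under at least 1 of the settings. Of the 1554, 49 values over 20 results, past the threshold under neither setting, also changed sign. In all, 35 results stayed on their side throughout. With every library at the same FPKM sum, reversed values were -0.30 for Tgfa (medium, shControl), -0.26 for Erbb2 (shNdufa5_2 against shControl, PCM), 0.26 for Hbegf and 0.12 for Egfr (shNdufa5_1 against shControl, SCM) and -0.0093 for Egfr (shNdufa5_2 against shNdufa5_1, PCM), and Hbegf in SCM was 0.028 at equal fragment totals, chosen after seeing the data. Counts of members called also moved at equal FPKM sums: 0 for medium in shNdufa5_1, 1 for medium in shNdufa5_2, 5 and 4 for shNdufa5_2 against shControl in PCM and SCM, 6 for the shNdufa5_2 interaction and 2 between hairpins in PCM. The genes called there were 924 for medium in shNdufa5_2, 6473 for shNdufa5_2 against shControl in PCM, and 7085 and 7450 for the interactions of shNdufa5_1 and shNdufa5_2. For the other comparisons the genes that rose and fell at equal FPKM sums are given above. Beside these totals the member counts are no result about the family. The cause of the moves was not tested.

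With no filter, 2 members were called for medium in shNdufa5_1 and 1 in the shNdufa5_2 interaction. With the GC and length trend removed, 2 members were called for medium in shNdufa5_1 and 2774 genes in the shNdufa5_2 interaction. With the replicate block as well, these were 2 and 2737, and 3094 genes were called for medium in shNdufa5_1. Leaving out 1 library gave 0 to 1 members for medium in shNdufa5_1, where 3871 to 4722 genes were called. It gave 1 to 3 in the shNdufa5_2 interaction (4318 to 4907 genes) and 2 to 4 between hairpins in PCM (6517 to 6987 genes). Where no gene total stands beside a member count, the count is no result about the members.

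No pairing by replicate number was seen in the values. Deviations of same-numbered libraries correlated at -0.0925 to 0.0646, against -0.0973 to 0.0958 for libraries of other numbers. Of the 18 libraries, 8 correlated best with their own number. These correlations cannot show whether same-numbered libraries were handled together. The replicate block alone gave 6810 genes for medium in shControl, against 6863 without it. With the block and the GC and length trend removed, the Egfr interaction of shNdufa5_1 was no longer past the threshold (0.30, adjusted p = 0.0556). Depth limits Btc, Erbb3 and Ereg, with at most 108 fragments each.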
